A study of Homo sapiens with 4 samples.

Results

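The microRNA-15/16 family, read from 8 hairpin genes, was described in a map of Argonaute-bound RNA regions from HEK293 cells, a human embryonic kidney cell line. A deposited region was taken as a member when it overlapped the hg19 span of MIR15B, MIR16-2, MIR15A, MIR16-1, MIR195, MIR497, MIR424 or MIR503 by at least 1 nt on the strand of the hairpin. This gave 9 of the 211947 regions in the list, and each of the 8 hairpins held at least 1. The map came from PAR-CLIP, in which cells take up 4-thiouridine, RNA is crosslinked to a protein with long-wave ultraviolet light, and the RNA that is precipitated with the protein is sequenced.

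There were 3 libraries of AGO1 and 1 library of AGO2. For AGO1, HEK293 cells with a stably expressed His/FLAG/HA-tagged protein received 4-thiouridine at 200 µM for 16 h, and an antibody to FLAG was used. For AGO2, HEK293 cells received 100 µM for 16 h, the antibody was AGO2 11A9, and no tag is named in the labels of that library, whereas the series text names tagged lines for both proteins. All cells were irradiated at 365 nm, and no uncrosslinked or mock library is among the samples used here. Because the list carries 1 score per region and no value per library, and which of the 4 libraries it holds is not stated, AGO1 and AGO2 could not be compared here. No value below has a replicate error, its read depth is unknown, and no difference between hairpins was tested.

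MicroRNAs are cut from hairpin precursors. First Drosha frees the hairpin from a longer transcript, then Dicer removes its loop, and one strand of the resulting duplex stays in an Argonaute protein as the guide. The strand from the 5′ side of the hairpin is named 5p and that from the 3′ side 3p. Guides recognise target mRNAs mainly through their seed, bases 2 to 8. The miR-15/16 family is best known for restraining cyclins and other cell cycle genes and the survival gene BCL2, and its chromosome 13 pair is often lost in chronic lymphocytic leukaemia.

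The 8 hairpins encode 7 different 5p sequences, which are shown to make clear what the loci share and where they differ. Sequences are from RefSeq (GRCh38.p14), all 8 hairpins were matched by symbol, and each has the length of its hg19 span. Capitals mark the seed.
miR-15a-5p: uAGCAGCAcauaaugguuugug
miR-15b-5p: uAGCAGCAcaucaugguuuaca
miR-16-5p: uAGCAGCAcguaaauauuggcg
miR-195-5p: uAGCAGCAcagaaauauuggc
miR-424-5p: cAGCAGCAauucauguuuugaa
miR-497-5p: cAGCAGCAcacugugguuugu
miR-503-5p: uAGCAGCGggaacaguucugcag

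The seed AGCAGCA was shared by 6 of these sequences, from 7 of the loci. Among 2370 mature human sequences in the same table, only miR-6838-5p held it besides. The seed of miR-503-5p, AGCAGCG, was found in no other. Neither AGCAGCA nor AGCAGCG contains a U, a trait of the seeds of 412 of the 2370 sequences (17.4%), and 4-thiouridine can only take the place of U. Past the seed the members diverged. From base 1 onward, miR-16-5p and miR-195-5p had the same base at 19 of 21 positions, miR-15a-5p and miR-15b-5p at 18 of 22, and miR-16-5p and miR-497-5p at 11 of 21.

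The loci lie as 4 pairs in hg19. MIR15B (chr3:160122376-160122473) and MIR16-2 (chr3:160122533-160122613) follow each other on the plus strand, with 59 nt between them. MIR15A (chr13:50623255-50623337) and MIR16-1 (chr13:50623109-50623197) are 57 nt apart on the minus strand. MIR497 (chr17:6921230-6921341) and MIR195 (chr17:6920934-6921020) are 209 nt apart, and MIR424 (chrX:133680644-133680741) and MIR503 (chrX:133680358-133680428) 215 nt apart, all on the minus strand. In the RefSeq gene table, the chromosome 3 pair lies inside SMC4, a condensin subunit gene, and inside the span of the lncRNA TRIM59-IFT80. The chromosome 13 pair lies inside the lncRNA DLEU2 and the chromosome 17 pair inside the lncRNA MIR497HG. MIR503 lies inside the lncRNA MIR503HG, whose span MIR424 overlaps in part. No exon annotation of hg19 was used here.

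The highest scores of the family were those of the pair on chromosome 3. Each region has a score from 1 to 1000, a whole number whose meaning the sources used here do not give. MIR16-2 had 1 region, at 160122522 to 160122607, with a score of 756, and it ranked 11 among all regions of the list. MIR15B had 1 region, at 160122375 to 160122481, with a score of 327 and rank 56. Together they held 62.1% of the summed score of the family, 1083 of 1743, and 31.3% where scores above 100 were set to 100. The score of MIR16-2 was 2.31 times that of its neighbour.

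The pair on chromosome 13 followed, in the other order within the pair. MIR15A had a region at 50623256 to 50623333 with a score of 226, and MIR16-1 had one at 50623119 to 50623187 with a score of 155. Here the miR-15 hairpin had 1.46 times the score of the miR-16 hairpin. The pair held 21.9% of the summed score of the family. Their ranks in the list were 131 and 245.

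MIR424 and MIR503, the pair on chromosome X, had scores 1.38 times apart. The region of MIR424, at 133680672 to 133680735, had a score of 139, and that of MIR503, at 133680361 to 133680425, had a score of 101. The pair held 13.8% of the summed score.

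Scores on chromosome 17 were far lower. MIR497 had 1 region, at 6921295 to 6921318, with a score of 22. MIR195 was the 1 hairpin with separate regions for its arms, at 6920982 to 6921009 with a score of 14 for 5p and at 6920947 to 6920972 with a score of 3 for 3p. The 3 regions made up 2.24% of the summed score of the family, and MIR16-2 had 34.4 times the score of MIR497. Both hairpins were in the list all the same: the MIR497 region ranked above 96.484% of all regions and the MIR195 5p region above 93.063%, while the 3p region of MIR195 stood at the median of the list.

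**Figure D1:**
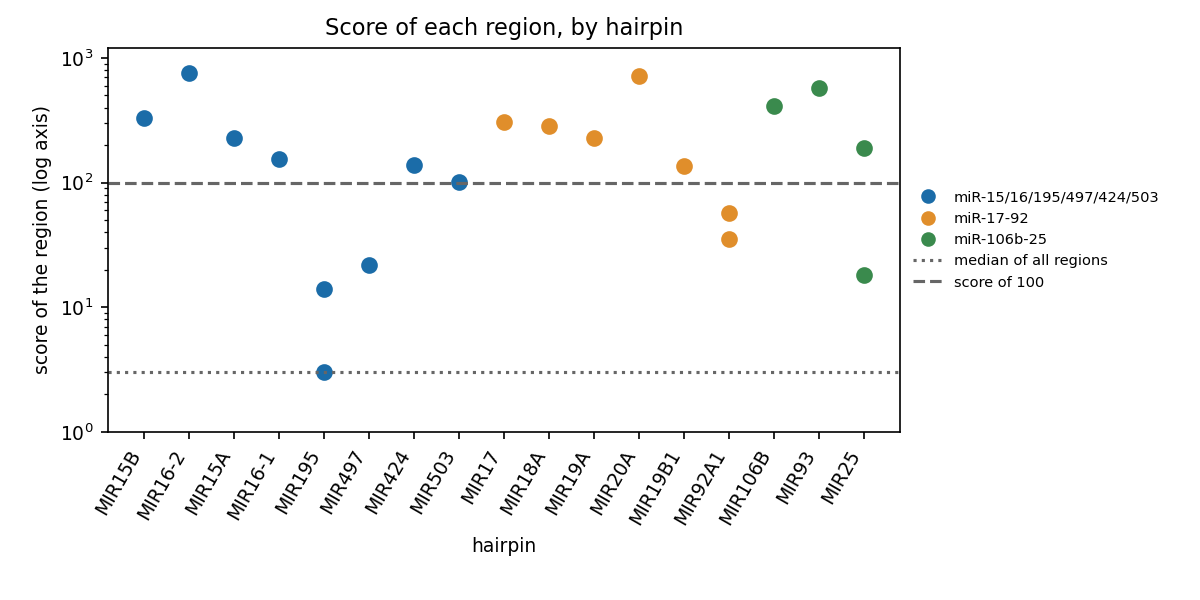
Score of every region on the 8 hairpins of the miR-15/16 family and on the 9 hairpins of the miR-17-92 and miR-106b-25 clusters. Each point is 1 region, the vertical axis is logarithmic, and lines mark the median of all regions (3) and a score of 100. MIR16-2 is highest in the family at 756, and its 3 regions below 100 are those of MIR195 and MIR497.

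In the family, 6 of the 9 regions, each on another hairpin, had a score of at least 100, against 560 of all 211947 regions (0.264%). The lowest of the 6 in the family was MIR503 at 101, and the next below was MIR497 at 22. The median score was 139 in the family, 228 in these 2 clusters and 3 over all regions. The 9 regions were 0.00425% of the list and held 0.150% of its summed score. These regions were picked as a microRNA family with earlier results of this list known, so the contrast describes the family and is no test.

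Width moved with score in the family. The 6 regions of high score were 64 to 107 nt wide and the 3 others 24 to 28 nt, whereas the median of the list was 32 nt. Set against nuclear regions within 10% of the same width, MIR16-2 had 68.7 times their median score of 11, and 1 of the 4375 regions in that set, its own, reached 756. The ratio was 25.1 for MIR15A, 23.2 for MIR424, 22.1 for MIR16-1, 19.2 for MIR15B and 14.4 for MIR503. Against equally narrow regions, whose median score was 2, the ratio was 11.0 for MIR497, 7.0 for the 5p region of MIR195 and 1.5 for its 3p region. At the width of MIR503, 73 of 10034 nuclear regions, its own among them, had its score or a higher one. For MIR195 these were 872 of 41745 regions at the width of its 5p region and 16838 of 45463 at that of its 3p region. High ratios were not particular to the family: over the 11 regions of miR-17-92 and miR-106b-25 they ran from 9.0 (MIR25) to 120 (MIR20A). The part of width in the order of the hairpins was not tested.

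**Figure D2:**
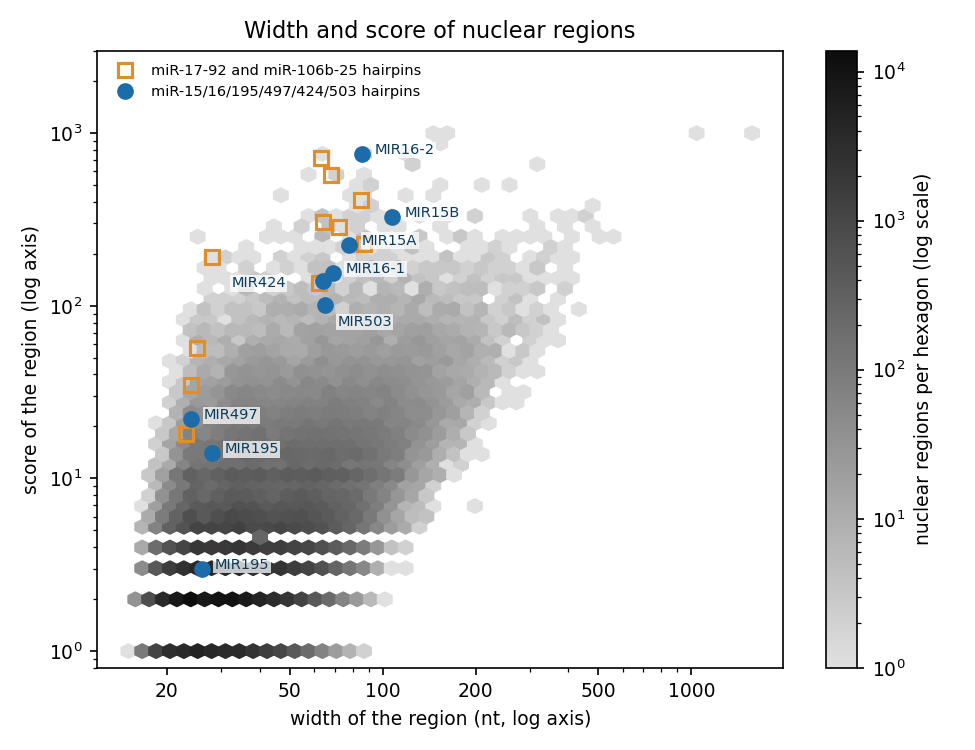
Width in nt and score of nuclear regions, both on logarithmic axes, with the number of regions in each hexagon in grey. The 9 regions of the miR-15/16 family are filled circles with the name of their hairpin, and the 11 regions of miR-17-92 and miR-106b-25 are open squares. The family falls into 6 regions of 64 to 107 nt with scores of 101 to 756 and 3 of 24 to 28 nt with scores of 3 to 22.

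The shape of the regions on the hairpins showed which arms were covered. The next sequences are hairpins from the 5′ to the 3′ end, with bases inside a deposited region in capitals. They are shown because they span the range from 2 covered arms in 1 region, over 2 separate arms, to 1 arm alone.
MIR16-2: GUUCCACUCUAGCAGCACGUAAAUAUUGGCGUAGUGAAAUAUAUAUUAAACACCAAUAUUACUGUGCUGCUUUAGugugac
MIR16-1: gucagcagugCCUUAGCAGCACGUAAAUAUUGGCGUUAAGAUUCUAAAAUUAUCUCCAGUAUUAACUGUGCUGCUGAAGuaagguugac
MIR424: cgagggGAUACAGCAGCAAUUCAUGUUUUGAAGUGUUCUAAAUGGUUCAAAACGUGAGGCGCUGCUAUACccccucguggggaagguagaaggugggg
MIR195: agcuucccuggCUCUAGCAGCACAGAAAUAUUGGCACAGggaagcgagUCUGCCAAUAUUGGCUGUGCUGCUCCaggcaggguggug
MIR497: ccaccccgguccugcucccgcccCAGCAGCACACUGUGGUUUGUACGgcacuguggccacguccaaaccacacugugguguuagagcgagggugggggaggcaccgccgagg

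The 5p sequence was covered at every one of its bases in all 8 hairpins, 175 of 175 nt. The 3p sequence was covered whole in 7 hairpins and not at all in MIR497, 154 of 176 nt in all. In 6 hairpins a single region ran from before the 5p sequence through the whole loop to the end of the 3p sequence or past it. One score then stands for both arms, so the shares of 5p and 3p within it cannot be told apart. In MIR195, 9 nt of the loop lay between its regions, and the score was 4.67 times as high on 5p as on 3p.

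Several region edges lay close to the ends of the mature sequences. The region of MIR497 began with the first base of miR-497-5p and ended 3 nt after its last. In MIR195 the 5p region began 3 nt before and ended 4 nt after the mature sequence, and the 3p region began 4 nt before it and ended with its last base. The region of MIR503 ran from 2 nt before miR-503-5p to the last base of miR-503-3p. Those of MIR424 and MIR16-1 began 4 and 3 nt before the 5p sequence and both ended 2 nt after the 3p sequence.

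The remaining hairpins were covered more widely. The region of MIR15A began 9 nt before the 5p sequence and ended 10 nt after the 3p sequence. That of MIR15B covered the whole hairpin of 98 nt, reached 1 nt past its 5′ end and 8 nt past its 3′ end, and so ended 27 nt after miR-15b-3p. That of MIR16-2 began 11 nt upstream of the hairpin but ended 1 nt after miR-16-2-3p. The regions of MIR15B and MIR16-2 came within 40 nt of each other, closer than the 59 nt between the hairpins. These 3 hairpins, whose regions reached 9 nt or more past a mature sequence, were also those with the highest scores in the family. Their regions were its widest as well, and the 2 traits were not separated. In miR-17-92 and miR-106b-25, the regions of MIR20A (721) and MIR93 (570) lay inside their hairpins. Those of MIR106B (409) and MIR19A (228) ran 9 and 15 nt past theirs. Whether mature strands or longer precursors were sequenced was not analysed here.

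**Figure D3:**
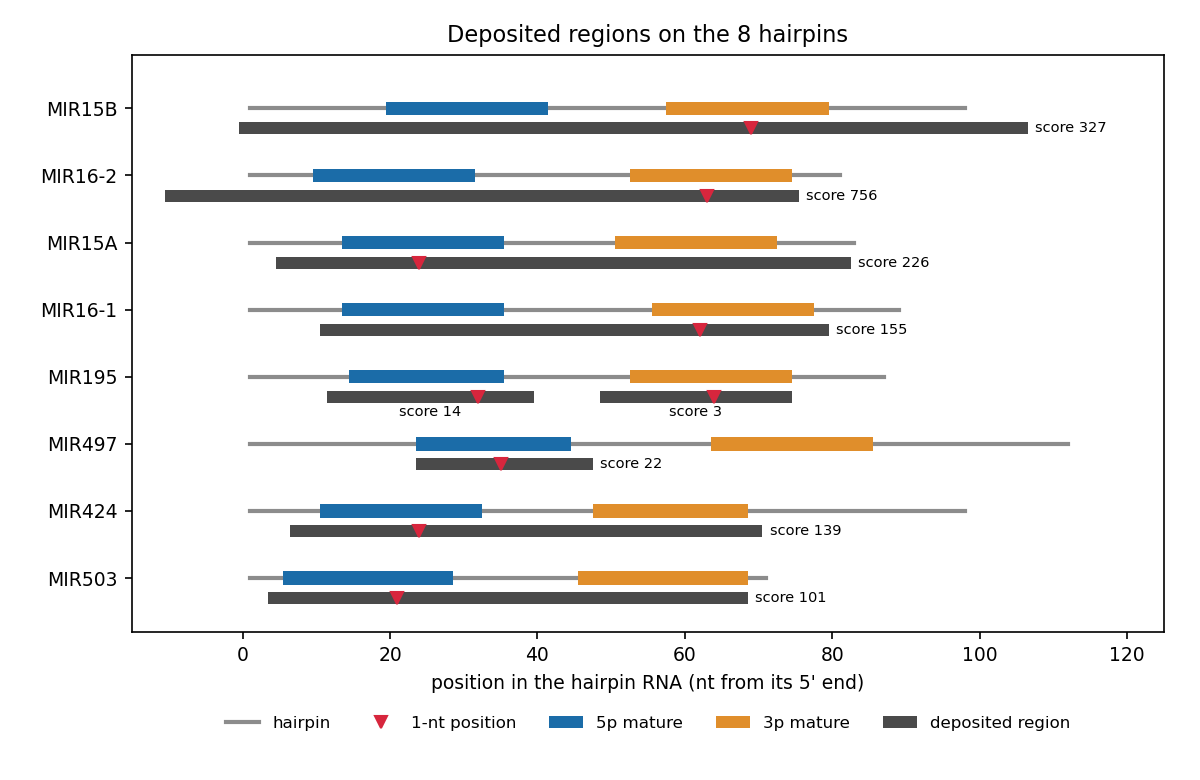
Deposited regions (dark bars, with their scores) on the 8 hairpins, drawn in nt from the 5′ end of each hairpin RNA, with the 5p and 3p mature sequences in blue and orange and the 1-nt position of each region as a red triangle. In 6 hairpins 1 region spans both mature sequences, in MIR195 each has its own region, and in MIR497 only 5p is covered.

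Each region also carries a 1-nt position, which the header does not explain. In all 9 regions it lay on a U of a mature sequence, 5 times in 5p and 4 times in 3p, and never in the loop or the flanks. Of the 527 hairpin bases in these regions, 175 lay in 5p and 154 in 3p sequences, so most were mature bases, and 152 were U (28.8%). In 2 other microRNA clusters, miR-17-92 and miR-106b-25, the position was also a U in 10 of the 10 regions with a hairpin sequence in the table, where 30.2% of the bases were U. Whether it lay in an arm or the loop there was not analysed. How often it is a U over the whole list was not computed, so the U is not read as a trait of the family. PAR-CLIP is known to leave T-to-C changes where 4-thiouridine was crosslinked. The mature sequences that hold the position are shown with that base in capitals.
miR-15b-3p: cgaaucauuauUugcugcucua
miR-16-2-3p: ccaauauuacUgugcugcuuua
miR-15a-5p: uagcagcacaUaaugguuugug
miR-16-1-3p: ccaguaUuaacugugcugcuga
miR-195-5p: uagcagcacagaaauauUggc
miR-195-3p: ccaauauuggcUgugcugcucc
miR-497-5p: cagcagcacacUgugguuugu
miR-424-5p: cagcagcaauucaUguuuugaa
miR-503-5p: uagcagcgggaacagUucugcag

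In the 5p sequences the position lay between base 11 and base 18, behind the seed. It was base 11 in miR-15a-5p, base 12 in miR-497-5p, base 14 in miR-424-5p, base 16 in miR-503-5p and base 18 in miR-195-5p. With no U in their seeds, bases 2 to 8 of these sequences could not hold such a position on a U. In the 3p sequences it was base 12 in miR-15b-3p and miR-195-3p and base 11 in miR-16-2-3p. In miR-16-1-3p it was base 7, within bases 2 to 8.

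MIR16-1 and MIR16-2 encode the same miR-16-5p, so their scores may not be independent. The longest run common to both hairpins is 23 nt, uagcagcacguaaauauuggcgu, which is miR-16-5p with 1 more base. Fragments inside this run match both loci, and the sources used here do not say how they were placed. MIR16-2 had 4.88 times the score of MIR16-1. The 1-nt position lay outside the common run at both loci, in the 3p sequence, where the hairpins differ. The hairpins of miR-15a and miR-15b encode different 5p sequences, and MIR15B had 1.45 times the score of MIR15A.

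Other regions near the hairpins had low scores, at most 11. How dense regions are over the whole list was not computed. Within 1000 nt of a hairpin there were 5 other regions on the same strand and 3 on the opposite strand. On chromosome 3, 3 regions with scores of 5, 8 and 5 lay 84 to 201 nt upstream of MIR15B and 1 with a score of 2 lay 829 nt downstream of MIR16-2. On chromosome 13, 1 region with a score of 2 lay 134 nt downstream of MIR16-1. The regions on the opposite strand all lay downstream of MIR195, with scores of 11, 6 and 5 at 95, 268 and 704 nt.

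Within 10000 nt the 4 pairs differed in what surrounded them. The chromosome 3 pair had 21 other regions on its strand, with a median score of 3 and a highest of 11, and the chromosome 13 pair had 20, with a median of 2 and a highest of 19. These are the pairs inside SMC4 and DLEU2. The chromosome 17 pair had no other region on its strand in that distance, and the nearest lay 160234 nt from the region of MIR497. On the opposite strand it had 9 regions with a median score of 6 and a highest of 53, above the 22 of MIR497. The chromosome X pair had 6 other regions on its strand, all 4903 to 6075 nt downstream of MIR503, with scores from 1 to 76. Their genes were not analysed here.

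**Figure D4:**
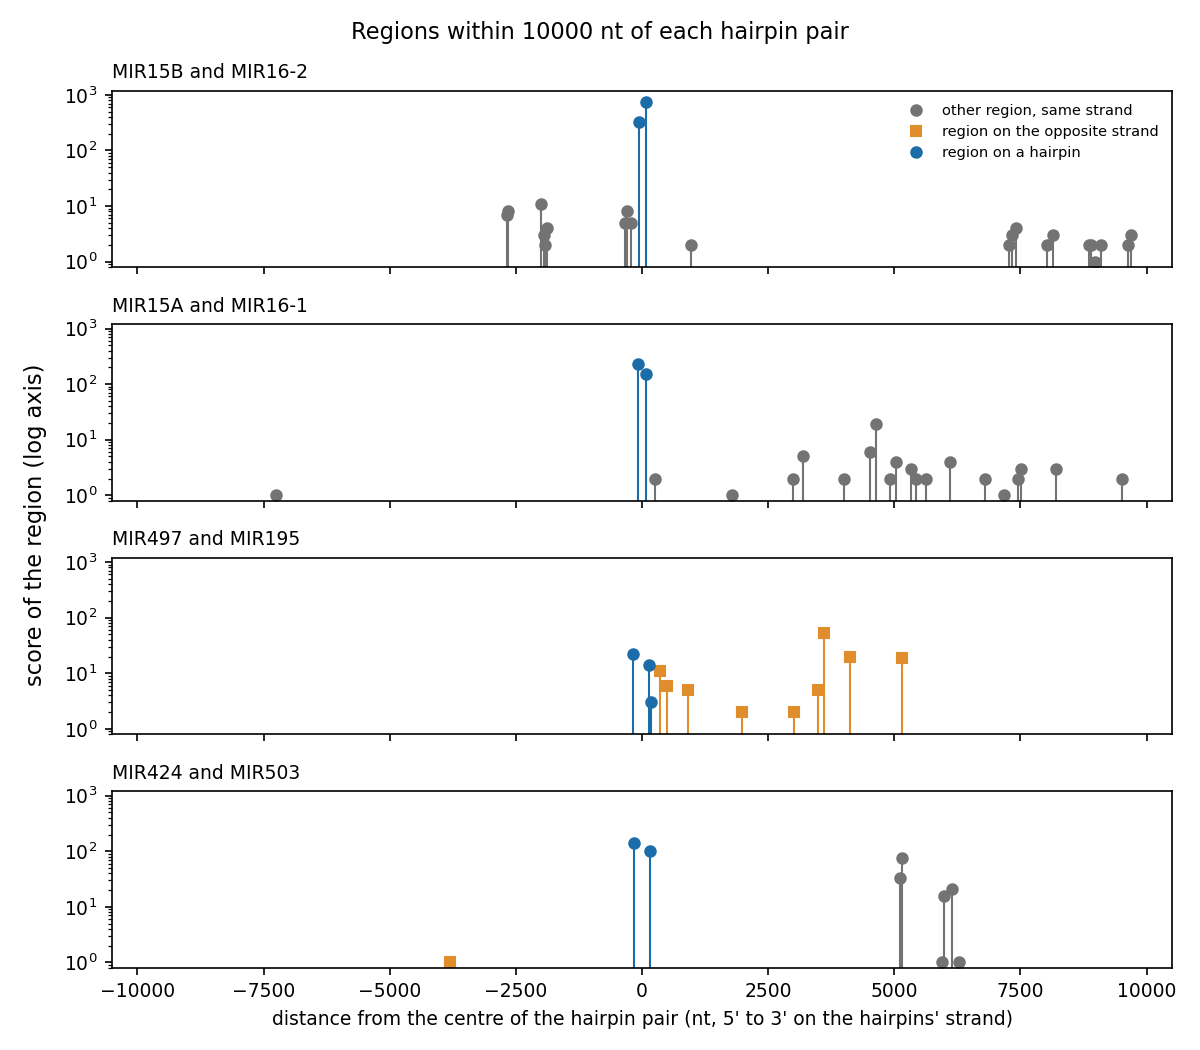
Score (logarithmic axis) of every region within 10000 nt of each hairpin pair, by its distance in nt from the centre of the pair, 5′ to 3′ on the strand of the hairpins. Regions on a hairpin are blue, other regions of that strand grey and regions of the opposite strand orange. Beside the chromosome 3 and 13 pairs no other region passes a score of 19, and beside the chromosome 17 pair 1 region of the opposite strand, at 53, stands above the hairpins.

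The family was set beside the clusters miR-17-92 and miR-106b-25, which are well known in dividing cells. miR-17-92 is a polycistron of 6 hairpins on chromosome 13, and miR-106b-25 is its paralogue of 3 hairpins in the gene MCM7 on chromosome 7. All 9 of these hairpins held a region as well. Summed over the regions of a hairpin, scores ran from 92 (MIR92A1) to 721 (MIR20A), with a median of 285, against a range of 17 to 756 and a median of 147 in the miR-15/16 family. The ranges overlapped over most of their length. In the joint order of 17 hairpins, MIR16-2 was first, followed by MIR20A at 721 and MIR93 at 570. MIR15B was the fifth with 327, between MIR106B at 409 and MIR17 at 305.

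The lower end of that order was held by the family. MIR497 with 22 and MIR195 with 17 came last, below MIR92A1 with 92. MIR92A1, with scores of 57 and 35, and MIR25, with 191 and 18, also held 2 regions each. Their arms were not located. Regions narrower than 30 nt therefore did not always have low scores: the MIR25 region of 28 nt had a score of 191, against 14 for the MIR195 region of the same width. With 1 list and no replicates, these differences between hairpins could not be tested.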

How the data were processed

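The series has 4 PAR-CLIP libraries (3 AGO1, 1 AGO2) of HEK293 cells and 1 deposited list of RNA regions. Per the file headers it lies on hg19, is named AGO_good and passed a filter whose name holds 0.05. BWA 0.5.8c and hg19 are named per the submitters' processing notes. The sources used here name neither the region caller nor the libraries in the list. The score is the deposited whole number of each region, from 1 to 1000, with 7 regions at 1000. Start, end and 1-nt position are coordinates as deposited by the authors, printed counting from 1.

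The members and lists were chosen with earlier results of these data known. All 8 loci are named, with other regions within 1000 nt and the 2 clusters set beside them. The spans of those clusters were entered by hand and checked: all 9 lengths, and the spacing within each cluster, equal those in RefSeq (GRCh38.p14). Mature sequences were located in their hairpin, whose length equals the hg19 span. Surroundings within 10000 nt were added after the values were seen. No test was run, since the list has no values per library. The functions recovered all 5 measures on 200 simulated hairpins. Python 3.11.15, numpy 2.4.6, pandas 2.3.3 and matplotlib 3.10.9 were used.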

Additional observations from a re-analysis of the deposited data

How the results depend on the processing

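Of 39 alternatives, 32 were planned and 7, at a score minimum of 5, were added after the values were seen. In 34 of them the value was the same or, for a count, within 1.5 times. Many of these could not have moved. The lowest score in the family is 3, so score minimums of 2 and 3 leave out no region. No minimum used here could change the highest score, and a cap on scores cannot change the 5p share of covered bases. The count of 34 is therefore no measure of robustness. The other 5 moved. With scores above 100 set to 100, the share of the MIR15B and MIR16-2 regions in the summed score was 31.3%, against 62.1%, since the setting caps 6 of the 9 regions. At a score of 5 or more, which leaves out the 3p region of MIR195, the summed score was 1740 against 1743, that share was 62.2%, and the 5p share of covered mature bases was 57.0% against 53.2%. The median score of the family was 46.3 times that of all regions, and against nuclear regions of the same width the median ratio was 19.2. A minimum overlap of 50% of the region, the 1-nt position inside the hairpin, spans widened by 20 nt and score minimums of 2 and 3 changed none of the values computed under them. No paired analysis was possible because each region has 1 score and none per library. The comparison of AGO1 with AGO2 was not run for the same reason. Read depth is unknown, so no limit of detection can be given for the 3p arm of MIR497.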

Other observations

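The 3p sequences of the family hold the reverse complement of the seed to different extents. The 7 bases UGCUGCU, which pair with the seed AGCAGCA, were found in the 3p sequences of 4 of the 7 hairpins with that seed: MIR15B, MIR16-2, MIR16-1 and MIR195. They were not found in those of MIR15A, MIR424 and MIR497, although that of MIR424 held the shorter GCUGCU. Of the 2370 mature human sequences in the RefSeq table, 10 hold them (0.422%), these 4 among them.

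The list numbers its regions, and 2 numbers that no region carries stand beside the chromosome X pair. One falls between the regions of MIR503 and MIR424 and the other just after that of MIR424. No unused number stood beside the other 7 regions of the family. The region of MIR424 carries the number 216272, in a list of 211947 regions. How often unused numbers stand beside regions over the whole list was not computed, so they are not read as a trait of this pair.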
